A study of Homo sapiens with 4 samples.

Results

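The change from day 0 to day 6 was followed in SIRT1-knockout cells of H9, an established human embryonic stem cell line, across the transcription factor, signalling and metabolism genes that these cells expressed. The members are cells of both knockout libraries, taken as barcodes with at least 4000 unique molecular identifiers (UMIs, each counting 1 captured RNA molecule), at least 1000 detected genes and at most 20% of UMIs from mitochondrially encoded (MT-) genes. This rule gave 7275 knockout cells at day 0 and 4419 at day 6, together 11694 of the 22599 cells in the series. RNA was captured in droplets and read at transcript 3′ ends. Day 0 cells are the undifferentiated culture, kept in mTeSR1 on a Geltrex coat and lifted with TrypLE, and day 6 cells are on the way to dopaminergic neurons. Both knockout libraries carry the label of a sirtuin 1 deletion, and the 2 wild-type libraries (10905 cells) are H9 cells with no modification, at the same days. The labels do not say which part of SIRT1 is missing, whether the knockout is 1 clone, or which factors were added between the days. Each group is 1 library, so no replicate stands behind the changes and conditions were not tested against each other.

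Human embryonic stem cells keep their undifferentiated state through a small circuit of transcription factors, with POU5F1, SOX2 and NANOG at its centre, and through growth factor signals of the FGF and NODAL families. Dopaminergic neurons of the midbrain arise from neural epithelium at the ventral midline, the floor plate, where sonic hedgehog induces FOXA2 and a WNT source at the midbrain-hindbrain border helps to set the position along the head-to-tail axis. SIRT1, the deleted gene, encodes a deacetylase that consumes NAD and acts on chromatin and on regulators of metabolism.

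The cells of a library were summed, and a level is the count of a gene per 1000000 UMIs (CPM), leaving out of the total the 13 MT- genes and 87 ribosomal protein genes, whose share of UMIs moved between the days. A gene counts as measured at 10 CPM or more in 1 of the 2 knockout libraries, and the words rose and fell, or higher and lower as a call, stand for a ratio of at least 2-fold whose interval excludes 1. The range in parentheses after a fold or a share is its exact 95% interval (conditional binomial for a fold, Clopper-Pearson for a share). It covers counting error only and compares 2 libraries, not 2 conditions. Medians of lists are over measured members, and a gene measured through 1 high day had to differ between the days. These medians, and the counts of members that rose or fell, therefore describe and support nothing. In such sums, fewer cells of a type and less RNA per cell cannot be told apart.

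SIRT1 (ENSG00000096717; chromosome 10, 67884669 to 67918390, plus strand, GRCh38, as for all positions given here) stood at 10.1 CPM at day 0 and 14.2 CPM at day 6 in the knockout and at 45.9 and 45.99 CPM in wild type. Both knockout libraries were below both wild-type libraries. With every cell thinned to 4000 UMIs, 3.05% (2.67 to 3.47, unthinned 6.89%, free RNA 0.634%) of day 0 knockout cells and 3.98% (3.43 to 4.602, unthinned 13.01%, free RNA 0.421%) of day 6 knockout cells held a SIRT1 UMI. In this and later shares, the parentheses give the exact interval, the share without thinning and the share that free RNA alone would give, were it 10% of the UMIs of a cell. Day 6 cells were deeper than day 0 cells, with medians of 13169 against 8367 UMIs and 3832 against 3106 genes per cell, and their median MT- share was 1.61% against 4.81%. The summed knockout cells held 73451883 UMIs at day 0 and 65336710 at day 6. Both libraries held classes of cells that differ in their share of RNA from chromosome 20: 28.3% of the cells at day 0 and 27.3% at day 6 drew 3% or more of their UMIs outside MT- and ribosomal protein genes from that chromosome, and 56.4% and 62.5% drew under 2.6%. Changes were therefore also computed within the cells at 3% or more, called here the chromosome 20 class (2062 cells at day 0 and 1208 at day 6), and its value is given where it moved a change by over 1.5-fold or ended a call. Genes on chromosome 20 count in this share themselves, so for them the class was partly chosen on the values compared. The part of the classes in these results was not tested. The knockout libraries shared 11 cell barcodes, 0.249% of the smaller one.

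Of 10485 measured genes, 645 (6.15%) rose from day 0 to day 6 in the knockout and 967 (9.22%) fell, and 6.15% and 9.22% are the background for every count of members below. At least 4-fold changes numbered 169 up and 250 down, and at least 10-fold changes 55 and 78. The median log2 change of all measured genes was -0.09. Higher genes made up 40.0% of the calls, but 52.8% with TMM factors (edgeR's trimmed mean of M values). With these factors 9355 genes were measured, of which 696 rose and 621 fell, and the median became 0.05. Downward calls near the 2-fold limit thus depend on the scaling. Some named genes are close to the 10 CPM limit and fall under it when scaled to all UMIs: EN1, SIX3, MEIS2, SNAI2, FOXD1, GLIS3, HEY1, TNFRSF19, NRP1, CHRD, FGF19, FOSL2, MAFF, STMN2, CDC45, MLXIPL, SLC43A1 and SLC38A5. With TMM factors all of these but EN1 and FGF19 also do, and in the chromosome 20 class FGF19, FOSL2, MEIS2, NRP1, SLC38A5, SNAI2 and STMN2 do. Of 440 measured long non-coding RNAs 50 (11.4%) rose and 73 (16.6%) fell, and of 10026 protein-coding genes 590 (5.88%) and 893 (8.91%). The most abundant RNA that rose, named after its values were seen, was MALAT1, a long non-coding RNA kept in the nucleus, at 4965 CPM at day 0 and 21950.1 CPM at day 6.

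**Figure D1:**
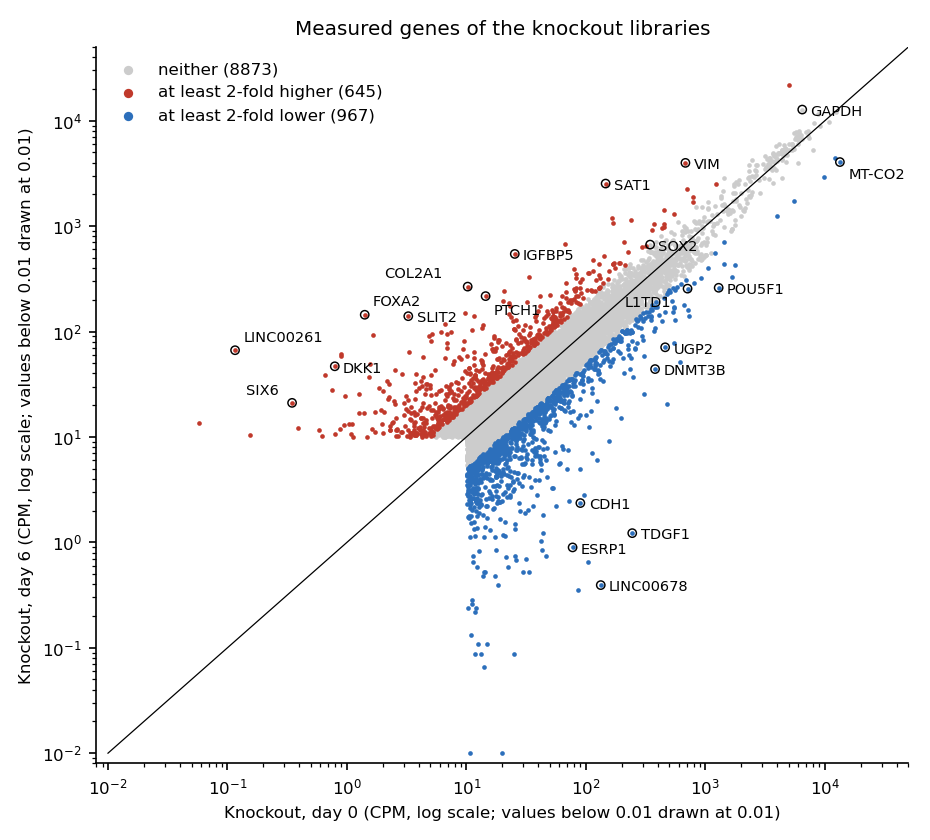
Each point is 1 measured gene of the knockout, by its CPM at day 0 (horizontal, log axis) and day 6 (vertical, log axis). The 645 higher and 967 lower genes are red and blue, the line marks equal levels, values too low for the axis are drawn at its edge, and named genes such as FOXA2 and TDGF1 lie far from the diagonal.

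The 15 largest increases, in genes that reached 20 CPM on either day, were led by a pair of neighbours on chromosome 20. LINC00261 (ENSG00000259974; chromosome 20, 22547671 to 22578642, minus strand), a long non-coding RNA, had 6 counts at day 0 and 3044 at day 6, or 0.116 CPM at day 0 and 66.5 CPM at day 6, a 574-fold (263 to 1566) rise. FOXA2 (ENSG00000125798; chromosome 20, 22581005 to 22585455, minus strand), the forkhead factor that specifies floor plate and endoderm, had 1.41 CPM at day 0 and 144 CPM at day 6 and was 102-fold (81.3 to 131) higher. Both genes lie on the chromosome whose share of RNA differs between the classes of cells, and their own UMIs count in that share. In the chromosome 20 class the log2 change of LINC00261 was 8.46, against 9.05 over all cells, while that of FOXA2 was 6.51 against 6.67. HYMAI, an imprinted transcript that overlaps PLAGL1, rose 68.7-fold and PLAGL1 itself, a zinc finger factor, 18.8-fold, from 4.86 CPM at day 0 to 91.5 CPM at day 6; their reads may be split between the overlapping genes. ANKRD1, a cardiac-type ankyrin repeat gene induced by YAP, rose 66.5-fold (0.887 and 58.97 CPM at day 0 and day 6; log2 change 6.04, and 5.27 in the chromosome 20 class).

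SIX6 (chromosome 14, 60508951 to 60512850, plus strand), a homeobox gene of the eye field, stood at 0.347 CPM at day 0 and 21.05 CPM at day 6 and was 60.6-fold (38.1 to 103) higher. DKK1 (chromosome 10, 52314296 to 52318042, plus strand), a secreted inhibitor of WNT signalling, rose 59.2-fold from 0.791 CPM at day 0 to 46.8 CPM at day 6. LGI1, a secreted neuronal protein, went from 1.66 CPM at day 0 to 93.03 CPM at day 6, 56.1-fold higher, and AL157396.1, a transcript inside LGI1, rose 58.5-fold, so these counts may share reads. SLIT2, a midline repellent of axons, rose 42.9-fold from 3.26 CPM at day 0 to 139.8 CPM at day 6. The neural progenitor genes LIX1 and FOXB1 rose 36.8-fold and 31.5-fold, the cartilage and floor plate collagen COL2A1 26.03-fold, and ZBTB16, a zinc finger repressor of neural progenitors, 25.1-fold. The list closes with the growth factor BMP4 (24.2-fold) and IGFBP5, which binds insulin-like growth factors and reached 544 CPM at day 6 from 25.4 CPM (21.4-fold). Among cells of the chromosome 20 class the log2 change was 5.17 for SIX6 (5.88 over all cells), 3.97 for LIX1 (5.18) and 5.31 for BMP4 (4.59). After subtraction of free RNA it was 6.99 for DKK1 (5.87 before), 5.56 for BMP4 and 12.58 for LINC00261. For LINC00261 subtraction left few or no counts at day 0, so its value depends on the prior count of 0.5 added to every count. Among cells of at least 8000 UMIs SIX6 changed by 6.71 and AL157396.1 by 6.45, against 5.85.

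The 15 largest decreases included pluripotency-associated transcripts and epithelial genes. LINC00678 (ENSG00000254934; chromosome 11, 27617626 to 27634627, minus strand), a long non-coding RNA of undifferentiated cells, fell from 133 to 0.393 CPM, 339-fold (214 to 572) lower. LINC00458 (288-fold lower), FOXD3-AS1 (247-fold lower) and AC007218.1 (159-fold lower) are also non-coding; no source used here states the strand used in counting, so FOXD3-AS1 is uncertain. TDGF1 (ENSG00000241186; chromosome 3, 46574534 to 46582463, plus strand), the co-receptor of NODAL, went from 244 CPM at day 0 to 1.22 CPM at day 6 and was 199.7-fold (154 to 265) lower. Epithelial genes followed: ESRP1, a splicing regulator of epithelial cells, was 86.4-fold (63.6 to 121) lower, the tight junction gene CLDN7 62.3-fold lower, E-cadherin (CDH1) 38.1-fold (31.5 to 46.5) lower from 89.8 CPM at day 0 to 2.36 CPM at day 6, keratin KRT7 38.5-fold lower and the sodium channel subunit SCNN1A 40.8-fold lower. The remaining names were C9orf135 (63.4-fold lower), the glycosyltransferase B3GNT7 (57.2-fold), the tyrosine kinase LCK (50.3-fold), SCGB3A2, a secretoglobin (45.3-fold), and the homeobox gene NKX1-2 (37.5-fold). Day 6 counts of these genes were as few as 4 for LINC00458, and CDH1 had 108, so several of the folds have wide intervals. The log2 falls were smaller in the chromosome 20 class for TDGF1 (-6.33 against -7.63), LINC00678 (-7.37 against -8.36), AC007218.1 (-5.63 against -7.29), ESRP1 (-5.52 against -6.42), CDH1 (-4.42 against -5.24), SCNN1A (-4.57 against -5.33) and SCGB3A2 (-4.41 against -5.48). Subtracting free RNA made the falls deeper, for example to -11.85 for CLDN7 (-5.94), -10.87 for KRT7 (-5.24), -11.02 for LINC00458 and -6.86 for SCNN1A. For CLDN7, KRT7 and LINC00458 it left few or no counts at day 6, so these values depend on the prior count and are not measured depths.

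Pluripotency factors fell unequally. Of 18 listed core factors, 13 were measured, and 8 of these fell, 0 rose and 5 did neither, with a median log2 change of -1.58. POU5F1 (OCT4; ENSG00000204531), which has near-identical pseudogenes, had 1291 CPM at day 0 and 259.96 CPM at day 6 and was 4.97-fold (4.87 to 5.07) lower. NANOG went from 62.3 CPM at day 0 to 18.8 CPM at day 6 (3.31-fold lower), while SOX2, which pluripotent and neural cells share, had 345 CPM at day 0 and 668 CPM at day 6, a log2 change of 0.95 that did not reach 2-fold and does with TMM factors. The deepest falls were of ZSCAN10, a zinc finger partner of POU5F1 (113 and 7.07 CPM; 15.9-fold lower), FOXH1, which carries SMAD2 complexes to NODAL target genes (59.5 and 5.59 CPM; 10.6-fold), and ZFP42 (REX1; 74.9 and 13.8 CPM; 5.43-fold). OTX2 (2.996-fold lower), ZNF398 (3.34-fold) and the ETS factor ETV4 (2.47-fold) also fell. SALL4, MYCN and ETV5 had log2 changes of -0.32, -0.60 and 0.69.

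The share of cells moved with these levels. A POU5F1 UMI was present in 96.2% (95.7 to 96.6, unthinned 99.01%, free RNA 30.3%) of day 0 cells and 32.6% (31.2 to 33.99, unthinned 55.04%, free RNA 7.43%) of day 6 cells. TDGF1 was present in 45.3% (44.1 to 46.4, unthinned 69.8%, free RNA 5.62%) and then 0.181% (0.0782 to 0.356, unthinned 0.679%, free RNA 0.161%), near the share from free RNA. NANOG went from 15.5% (14.7 to 16.4, unthinned 32.9%, free RNA 1.67%) to 3.71% (3.17 to 4.31, unthinned 12.5%, free RNA 0.502%) and SOX2 from 61.6% (60.4 to 62.7, unthinned 85.5%, free RNA 6.88%) to 80.5% (79.3 to 81.6, unthinned 96.97%, free RNA 13.03%). The shares of POU5F1 and NANOG fell and that of SOX2 rose.

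Of 18 listed zinc finger and growth-linked factors of pluripotent cells, 16 were measured, of which 1 rose, 6 fell and 9 did neither. UTF1, a chromatin-bound factor of undifferentiated cells, had the deepest fall (62.7 and 8.19 CPM; 7.66-fold), followed by the telomere protein TERF1 (713 and 159 CPM; 4.47-fold). MYC fell 2.38-fold (41.03 and 17.2 CPM) and its relative MYCL 2.197-fold, DPPA4 2.15-fold and SALL3 2.53-fold; the DPPA4 call ends with TMM factors. SALL1, a zinc finger factor of several embryonic organs, rose 3.69-fold from 37.4 CPM at day 0 to 138 CPM at day 6. LIN28A and LIN28B, which block maturation of let-7 microRNAs, had log2 changes of -0.52 and -0.28. Restricted to the chromosome 20 class, the log2 change was -1.92 for MYC (-1.25 over all cells) and -3.83 for UTF1 (-2.93).

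Factors of the floor plate and of dopaminergic progenitors were mostly below 10 CPM. Of 19 listed genes, 3 were measured: FOXA2 and EN1 rose and OTX2 fell. EN1, which patterns the border of midbrain and hindbrain, had 3 counts at day 0 and 627 at day 6, or 0.0579 CPM at day 0 and 13.7 CPM at day 6, and was 237-fold (80.6 to 1150.05) higher. Its log2 change of 7.66 was 10.36 after subtraction of free RNA and 8.37 among cells of at least 8000 UMIs. With so few counts at day 0, the value after subtraction depends on the prior count. A FOXA2 UMI was found in 0.234% (0.136 to 0.374, unthinned 0.7698%, free RNA 0.112%) of day 0 cells and 26.8% (25.5 to 28.1, unthinned 48.2%, free RNA 3.67%) of day 6 cells, and an EN1 UMI in 0.0412% (0.008505 to 0.1205, unthinned 0.0412%, free RNA 0.0187%) and 3.48% (2.96 to 4.07, unthinned 7.76%, free RNA 0.281%). LMX1A, which acts with FOXA2 in midbrain dopaminergic progenitors, had 1 count at day 0 and 162 at day 6, or 3.54 CPM, and a UMI in 0.996% (0.724 to 1.33, unthinned 3.28%, free RNA 0.101%) of day 6 cells. The second member of its pair, LMX1B, stood at 0.154 and 0.284 CPM. NKX6-1 went from 5 to 104 counts, FOXA1 from 0 to 101 and NKX2-2, a ventral marker beside the floor plate, from 1 to 31. Of the 10 floor plate markers, CORIN had 16 and 8 counts and SPON1 162 and 188, and the adhesion gene ALCAM fell 2.2-fold, from 18.2 CPM at day 0 to 8.25 CPM at day 6.

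Eye-field genes were also among those that rose. Of 18 listed forebrain and eye-field factors, 3 were measured; SIX6 and SIX3 rose and HESX1 (log2 change -0.48) did neither. SIX3, a homeobox gene of the anterior forebrain, went from 1.04 CPM at day 0 to 13.1 CPM at day 6, 12.6-fold higher. A SIX6 UMI was found in 0.0825% (0.0303 to 0.179, unthinned 0.179%, free RNA 0.0187%) and then 4.37% (3.78 to 5.01, unthinned 8.06%, free RNA 0.401%) of cells, and a SIX3 UMI in 0.247% (0.147 to 0.391, unthinned 0.481%, free RNA 0.0748%) and 2.87% (2.401 to 3.41, unthinned 7.02%, free RNA 0.361%). PAX6, a general factor of forebrain and eye, had 28 counts at either day, or 0.540 and 0.611 CPM. In wild type SIX6 had 1.06 and 2.54 CPM and SIX3 2.67 and 3.25 CPM at day 0 and day 6.

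Of 20 listed midbrain-hindbrain and hindbrain factors, 6 were measured, and these 6 rose. GBX2, PAX8, MEIS2, IRX3 and IRX1 were under 10 CPM at day 0, so they had to be higher at day 6 to be measured. GBX2, which sets the hindbrain side of the midbrain-hindbrain border, had 8.604 CPM at day 0 and 57.3 CPM at day 6 and was 6.66-fold (6.02 to 7.38) higher, with a UMI in 2.34% (2.002 to 2.71, unthinned 4.77%, free RNA 0.224%) and 12.1% (11.2 to 13.1, unthinned 32.5%, free RNA 1.38%) of cells. PAX8 went from 1.27 CPM at day 0 to 16.9 CPM at day 6 (13.3-fold higher), MEIS2 from 0.386 CPM at day 0 to 12.2 CPM at day 6 (31.6-fold) and IRX3 from 1.39 CPM at day 0 to 16.7 CPM at day 6 (12.02-fold). IRX1 and IRX2, homeobox neighbours on chromosome 5, rose 3.73-fold and 2.32-fold. Each of MEIS2 (log2 change 3.19 against 4.95), IRX3 (2.79 against 3.58) and IRX2 (0.61 against 1.21, no longer past 2-fold) changed less in the chromosome 20 class. With cells of at least 2000 UMIs PAX8 changed by 2.96, against 3.72, and MEIS2 by 4.32, and with at least 8000 UMIs MEIS2 changed by 5.56. Most listed members, 14 of 20, stayed below 10 CPM at both days, among them the secreted border signals FGF8 (2 and 41 counts) and WNT1 (6 and 5 counts). No HOX gene of 39 listed was measured, and their summed level was 3.38 and 1.88 CPM at day 0 and day 6. Wild-type levels at day 0 and day 6 were 4.76 and 9.26 CPM for GBX2 and 0.987 and 1.09 CPM for PAX8, while IRX1 had 2.497 and 39.7 CPM.

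Of 28 listed factors that neural progenitors share, 18 were measured, of which 8 rose, 3 fell and 7 did neither, with a median log2 change of 0.92. SOX21, an antagonist of SOX2-type factors in neurogenesis, had 2.55 CPM at day 0 and 42.8 CPM at day 6 (16.8-fold higher), and SOX5, a factor of neural progenitors and neural crest, 2.16 CPM at day 0 and 33.7 CPM at day 6 (15.6-fold). NR2F2 (COUP-TFII), an orphan nuclear receptor, rose 13.8-fold and ID4, which binds helix-loop-helix factors and blocks them, 7.37-fold. The Notch effectors HEY1 and HES1 rose 5.06-fold and 3.06-fold, HES1 from 60.7 CPM at day 0 to 185 CPM at day 6, and NFIA, a glial and neural factor, 2.54-fold. A UMI was found at day 0 and day 6 in 0.729% (0.546 to 0.952, unthinned 1.69%, free RNA 0%) and 9.91% (9.05 to 10.8, unthinned 30.2%, free RNA 1.02%) of cells for SOX21, and in 15.4% (14.6 to 16.3, unthinned 31.6%, free RNA 2.77%) and 37.7% (36.3 to 39.2, unthinned 71.7%, free RNA 5.38%) for HES1. POU3F1 (3.41-fold), ZIC2 (541 and 170.1 CPM; 3.18-fold) and ZIC5 (2.89-fold) fell. The SOX genes SOX4, SOX11 and SOX3 had log2 changes of 0.69, 0.68 and 0.66. SOX5 changed by 2.80 in the chromosome 20 class, against 3.96.

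Factors of later or other fates were few. Of 20 listed neuronal differentiation factors, PROX1 alone was measured, and it rose 13.7-fold from 2.87 CPM at day 0 to 39.3 CPM at day 6 (log2 change 3.77, and 4.57 in the chromosome 20 class). NEUROG2, a proneural factor, had 2 counts at day 0 and 0 at day 6. Of 20 listed mesoderm and endoderm factors, 0 were measured, and TBXT (brachyury) had 7 and 4 counts and SOX17 5 and 0. Of 17 listed neural crest and placode factors, 3 were measured: SNAI2 rose 3.94-fold (2.86 and 11.2 CPM; log2 change 1.97, and 1.23 in the chromosome 20 class), and SOX9 and SOX8 had log2 changes of 0.94 and 0.89.

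**Figure D2:**
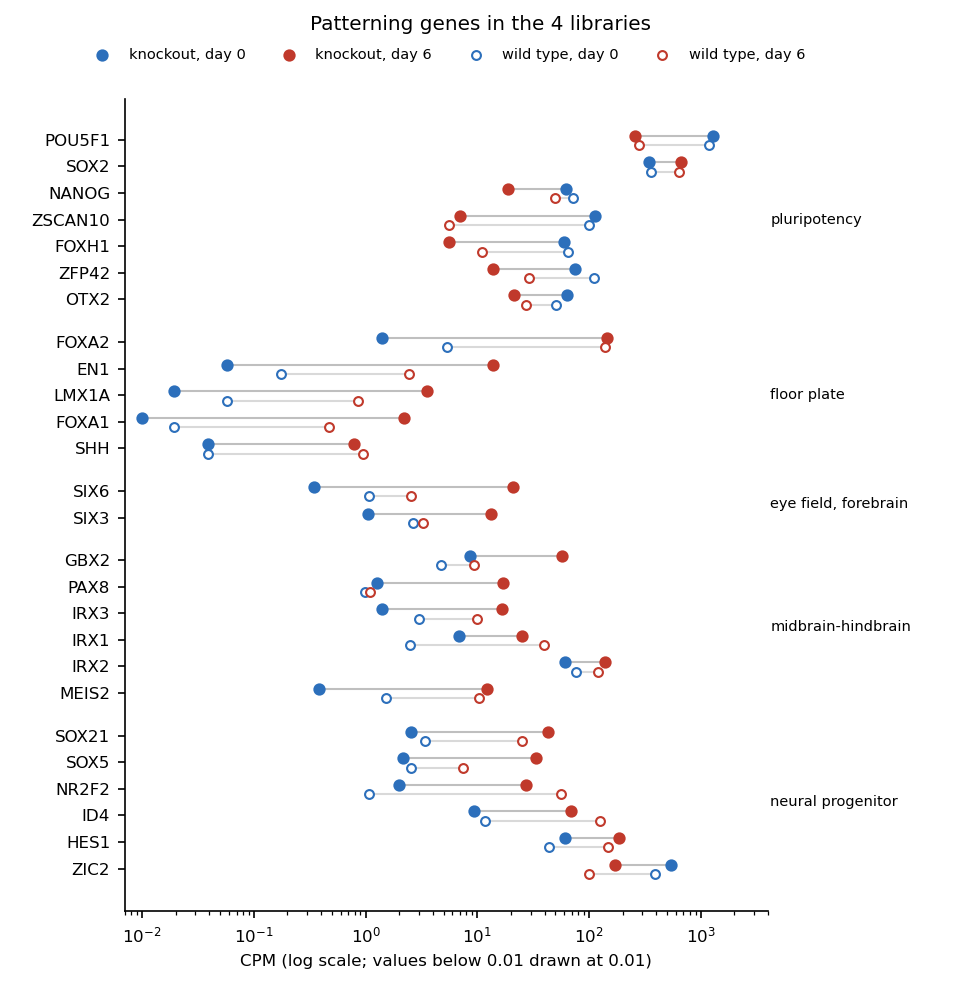
CPM of patterning and pluripotency genes (log axis) at day 0 and day 6 in the knockout (filled) and wild-type (open) libraries, 1 point a library, with a count of 0 drawn at the left edge. FOXA2 lies far above its day 0 level in both genotypes, and SIX6 and GBX2 have their highest point in the knockout at day 6.

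Of 25 listed immediate early and stress factors, 19 were measured, of which 7 rose, 4 fell and 8 did neither. JUN, an AP-1 subunit, went from 20.8 CPM at day 0 to 243 CPM at day 6 and was 11.7-fold (10.98 to 12.5) higher, with a UMI in 5.39% (4.88 to 5.93, unthinned 11.8%, free RNA 1.01%) and 42.5% (40.99 to 43.9, unthinned 71.2%, free RNA 5.38%) of cells. JUND (2.297-fold), the nuclear receptor NR4A1 (2.697-fold), FOSL2 (3.09-fold), MAFF (2.39-fold), KLF10 (2.102-fold) and FOS (2.35-fold) also rose. In the chromosome 20 class 18 were measured and 3 rose: the log2 change of JUN was 2.89 against 3.55, FOS (0.37), KLF10 (0.84) and NR4A1 (0.997) did not reach 2-fold, and FOSL2 (1.30) stayed under 10 CPM. CEBPB (3.12-fold), FOSL1 (3.01-fold), MYC and ATF5 (2.11-fold, not with TMM factors) fell.

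Chromatin regulators held calls at about the share of all measured genes, and DNMT3B was among those that fell. Of 22 listed, 19 were measured, of which 1 rose (5.26%), 2 fell (10.5%) and 16 did neither. The background is 6.15% and 9.22%. DNMT3B, the de novo DNA methyltransferase of early embryonic cells, on chromosome 20, had 379 CPM at day 0 and 44.02 CPM at day 6 and was 8.61-fold (8.23 to 9.02) lower, with a UMI in 62.2% (61.03 to 63.3, unthinned 83.8%, free RNA 11.6%) and 9.44% (8.59 to 10.3, unthinned 30.7%, free RNA 1.48%) of cells. Its relative DNMT3A had 71.6 and 60.6 CPM (log2 change -0.24), so DNMT3B made up 84.1% of the UMIs of this pair at day 0 and 42.1% at day 6. JARID2, a partner of Polycomb repressive complex 2, fell 2.07-fold, a call that ends with TMM factors, and TET2, which oxidises methylcytosine, rose 2.27-fold. EZH2, SUZ12 and EED, the core of that complex, had log2 changes of 0.36, 0.29 and 0.34.

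Among families, forkhead genes changed in both directions: 16 of 44 listed were measured, of which 3 rose (FOXA2, FOXB1 and FOXD1, the last 12.1-fold) and 3 fell (FOXH1, FOXO1 at 2.44-fold and FOXA3 at 2.09-fold, the last not with TMM factors). Among cells of the chromosome 20 class 6 rose. POU genes had 4 of 15 measured, with POU5F1, POU3F1 and POU2F2 (2.35-fold) lower. Of 249 measured ZNF genes 12 rose and 3 fell, led by ZNF503 (1.91 and 17.9 CPM; 9.36-fold; log2 change 3.22, and 2.55 in the chromosome 20 class), a repressor in the developing brain, and 19 rose either with TMM factors or in the chromosome 20 class. The glucocorticoid receptor gene NR3C1 fell 3.46-fold, and GLIS3, a zinc finger factor of the GLI type, rose 20.2-fold, from 0.579 CPM at day 0 to 11.7 CPM at day 6.

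In the hedgehog pathway the receptor PTCH1 rose and the ligand SHH was under 10 CPM at both days. Of 20 listed genes 7 were measured, of which 2 rose, 0 fell and 5 did neither. PTCH1 (ENSG00000185920), the receptor that hedgehog signalling itself induces, went from 14.5 CPM at day 0 to 217 CPM at day 6 and was 14.97-fold (13.9 to 16.1) higher. A PTCH1 UMI was in 4.36% (3.9 to 4.85, unthinned 9.43%, free RNA 0.5598%) of day 0 and 40.1% (38.6 to 41.5, unthinned 72.98%, free RNA 5.72%) of day 6 cells. GLI3, the main repressor form of the pathway's factors, rose 2.78-fold, and GLI2 had 33.2 CPM at day 0 and 17.6 CPM at day 6 (log2 change -0.91), so that GLI2 held 53.9% of the UMIs of the GLI2 and GLI3 pair at day 0 and 18.2% at day 6. The signal transducer SMO (0.15) and the co-receptors BOC (0.91) and CDON (0.20) had log2 changes short of 2-fold. Below the 10 CPM limit, the ligand SHH had 2 and 36 counts, the ligand-binding feedback inhibitor HHIP 26 and 449, and the target GLI1 467 and 389. In wild type PTCH1 had 16.1 and 76.7 CPM at day 0 and day 6.

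Several WNT targets rose, while WNT ligands were scarce. No WNT gene of 19 listed was measured, their sum being 19.9 and 14.98 CPM at day 0 and day 6. Of 32 listed ligands and receptors 9 were measured: ROR2, a receptor of non-canonical WNTs (4.61 and 32.1 CPM; 6.95-fold), and FZD2 (2.31-fold) rose, ROR1 (69.9 and 26.2 CPM; 2.66-fold) fell, and the co-receptors LRP5 (0.70) and LRP6 (0.55) changed by less than 2-fold on the log2 scale. Of 24 listed targets and secreted inhibitors 13 were measured, of which 8 rose, 1 fell and 4 did neither, with a median log2 change of 1.67. SP5, a zinc finger repressor that WNT induces directly, had 5.02 CPM at day 0 and 81.04 CPM at day 6 and was 16.2-fold (14.2 to 18.4) higher. DKK1, NKD1 (6.83 and 95.5 CPM; 13.98-fold) and AXIN2 (11.4 and 36.1 CPM; 3.17-fold), feedback inhibitors at the cell surface or in the cytoplasm, rose, as did TNFRSF19 (16.4-fold), the cyclin CCND1 (103 and 358 CPM; 3.47-fold) and the secreted WNT-binding proteins WIF1 (5.37-fold) and FRZB (3.18-fold). SFRP1, also a secreted WNT binder, fell 2.63-fold from 1050.5 CPM at day 0 to 399.8 CPM at day 6, and SFRP2 had a log2 change of -0.83. A UMI was found at day 0 and day 6 in 1.51% (1.24 to 1.82, unthinned 3.37%, free RNA 0.224%) and 18.4% (17.2 to 19.5, unthinned 43.9%, free RNA 2.27%) of cells for SP5 and in 0.179% (0.0952 to 0.305, unthinned 0.371%, free RNA 0.131%) and 8.53% (7.72 to 9.39, unthinned 16.99%, free RNA 1.1%) for DKK1.

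SP5 and DKK1 are the risen members of this list whose promoters hold the core letters that TCF and LEF factors, the DNA-binding partners of beta-catenin, recognise. The 250 bases before the start of each gene are shown, 5′ to 3′ on the strand of the gene (RefSeq, GRCh38.p14; SP5 at chr2:170715087-170715336, plus strand, and DKK1 at chr10:52314031-52314280, plus strand), with every match to CTTTGA on either strand in capitals.
SP5: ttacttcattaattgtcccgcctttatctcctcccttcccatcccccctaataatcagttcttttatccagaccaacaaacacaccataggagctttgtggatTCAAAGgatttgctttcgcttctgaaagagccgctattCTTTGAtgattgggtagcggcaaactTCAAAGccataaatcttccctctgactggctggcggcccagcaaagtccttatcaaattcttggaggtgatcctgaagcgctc
DKK1: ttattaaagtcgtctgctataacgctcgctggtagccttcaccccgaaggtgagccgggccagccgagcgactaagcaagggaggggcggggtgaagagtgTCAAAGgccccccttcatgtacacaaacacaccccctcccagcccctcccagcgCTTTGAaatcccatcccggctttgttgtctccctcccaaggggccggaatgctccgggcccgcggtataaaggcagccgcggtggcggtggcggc
The letters occurred 3 times before SP5 and 2 times before DKK1. Of the 8 risen members 5 had a promoter in the table, and 2 of these 5 (40%) held a match, against 11.4% of all 27305 promoters of the same length. Members that did neither held it in 0 of 2 promoters. These are few promoters, and the difference was not tested. A match is a description of letters and not a measured binding site.

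In the NODAL pathway the co-receptor of the ligand and a factor that reads the signal fell. Of 25 listed genes 13 were measured, of which 2 rose, 2 fell and 9 did neither. TDGF1 and FOXH1 fell as described above, and the ligand NODAL had 16 counts at day 0 and 0 at day 6. FST (follistatin), a secreted trap for activin, rose 5.95-fold from 32.3 CPM at day 0 to 192 CPM at day 6, with a UMI in 8.51% (7.88 to 9.17, unthinned 17.4%, free RNA 0.783%) and 31.3% (29.98 to 32.7, unthinned 60.2%, free RNA 4.81%) of cells, and SMAD3, a transducer, rose 2.94-fold. The receptors ACVR1B and ACVR2B and the transducers SMAD2 and SMAD4 had log2 changes of 0.08, 0.23, 0.12 and 0.16.

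BMP ligands and an antagonist both rose. Of 26 listed genes of the BMP pathway 11 were measured, of which 4 rose, 0 fell and 7 did neither. BMP4 had 1.54 CPM at day 0 and 37.4 CPM at day 6 and BMP7 18.3 CPM at day 0 and 82.4 CPM at day 6 (4.51-fold), and CHRD (chordin), which binds BMPs outside the cell, 0.945 CPM at day 0 and 13.1 CPM at day 6 (13.8-fold). ID4 rose, while its relatives ID1, ID2 and ID3, usual targets of BMP signalling, had log2 changes of -0.12, 0.27 and 0.69. A BMP4 UMI was found in 0.4399% (0.301 to 0.6204, unthinned 1.07%, free RNA 0.243%) and 8.26% (7.46 to 9.11, unthinned 16.5%, free RNA 1.299%) of cells. CHRD changed by 5.04 in the chromosome 20 class, against 3.78. In wild type ID1, a gene on chromosome 20, had 113 and 240.4 CPM at day 0 and day 6 against 49.4 and 45.5 CPM in the knockout.

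Of 31 listed FGF genes, receptors and ERK feedback genes 21 were measured, of which 6 rose, 3 fell and 12 did neither. The ligand FGF2, which keeps stem cells undifferentiated, fell 2.81-fold from 74.8 CPM at day 0 to 26.6 CPM at day 6, and FGF19, a ligand of the developing brain, rose 5.64-fold (2.43 and 13.7 CPM; log2 change 2.49, and 1.80 in the chromosome 20 class). The feedback inhibitors SPRY2 (78.9 and 253 CPM; 3.21-fold), IL17RD (3.02-fold), SPRY1 (2.601-fold) and SPRED1 (2.203-fold) rose, as did FGFBP3, which releases FGFs from the matrix (2.21-fold). SPRED1 changed by 0.90 against 1.14 in the chromosome 20 class, under 2-fold. ETV4 and DUSP5 (3.95-fold), both ERK targets, fell, whereas DUSP6 and ETV5 had log2 changes of 0.61 and 0.69. The receptors FGFR1, FGFR2, FGFR3 and FGFR4 had changes of -0.23, -0.66, 0.75 and -0.78.

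Of 22 listed Notch genes 16 were measured, of which 3 effectors rose (HES4 at 3.29-fold, HEY1 and HES1), 1 fell (HES6 at 2.07-fold, not with TMM factors) and 12 did neither. The receptors NOTCH1, NOTCH2 and NOTCH3 had log2 changes of -0.19, 0.30 and 0.40, and the ligands JAG1 and DLL3 0.49 and -0.77. Of 18 listed genes of retinoic acid handling 8 were measured: the binding proteins CRABP2 (80.8 and 242 CPM; 2.99-fold) and CRABP1 (781 and 1695 CPM; 2.17-fold) rose, and CYP26A1, which degrades retinoic acid, fell 6.18-fold from 40.99 CPM at day 0 to 6.64 CPM at day 6. Restricted to the chromosome 20 class, CRABP1 changed by 0.45 against 1.12 and did not reach 2-fold.

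Of 17 listed genes of insulin-like growth factor signalling 13 were measured, of which 3 rose, 1 fell and 9 did neither. IGFBP5 had 25.4 CPM at day 0 and 544 CPM at day 6, and an IGFBP5 UMI was found in 4.34% (3.89 to 4.84, unthinned 7.904%, free RNA 0.746%) and 52.2% (50.7 to 53.7, unthinned 74.7%, free RNA 10.8%) of cells. IGFBP3 rose 3.55-fold and the receptor substrate IRS1 2.14-fold (not in the chromosome 20 class), and IGFBP6 fell 6.59-fold from 40.98 CPM at day 0 to 6.22 CPM at day 6. The receptors IGF1R and INSR had log2 changes of 0.15 and -0.99.

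Guidance genes, which steer axons and cells, changed mainly through ephrins and neuropilins. Of 34 listed 23 were measured, of which 9 rose (39.1%), 1 fell and 13 did neither. After SLIT2, the neuropilin NRP1 (1.12 and 10.1 CPM; 8.995-fold), the ephrins EFNB1 (41.01 and 216 CPM; 5.27-fold), EFNB2 (5.11-fold) and EFNA5 (5.07-fold) and NRP2 (2.55-fold) had the largest rises, while EPHA2, EPHB3 and SEMA5B were 2.29-fold, 2.17-fold and 2.02-fold higher. In the chromosome 20 class NRP2 (0.86), EPHB3 (0.82) and SEMA5B (0.79) did not reach 2-fold, nor did SEMA5B among cells of at least 2000 UMIs. UNC5D, a netrin receptor, fell 8.49-fold from 29.1 CPM at day 0 to 3.43 CPM at day 6. A SLIT2 UMI was found in 0.8797% (0.678 to 1.12, unthinned 2.13%, free RNA 0.0935%) and 26.997% (25.7 to 28.3, unthinned 53.9%, free RNA 4.097%) of cells, and ROBO1, a SLIT receptor, had a log2 change of -0.78.

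Of 16 listed YAP target and cytoskeletal genes, all measured, 6 rose, 1 fell and 9 did neither. Besides ANKRD1, the matricellular genes CCN1 (14.4 and 61.4 CPM; 4.27-fold) and CCN2 (21.2 and 78.6 CPM; 3.703-fold), AJUBA (3.95-fold), AMOTL2 (3.75-fold) and TAGLN (2.41-fold) rose, and vinculin (VCL) fell 2.14-fold, a call that ends with TMM factors. TAGLN changed by 0.64 in the chromosome 20 class against 1.27 and did not reach 2-fold. In wild type ANKRD1 had 0.755 and 491 CPM, CCN1 15.8 and 290.1 CPM and TAGLN 26.6 and 438 CPM at day 0 and day 6. Of 25 listed p53 targets 23 were measured, of which 3 rose (PLK2, BTG2 and GADD45A, the last 2.19-fold and under 2-fold in the chromosome 20 class), 4 fell and 16 did neither. PMAIP1 (NOXA), a pro-apoptotic gene, fell 4.26-fold from 239 CPM at day 0 to 56.02 CPM at day 6, TIGAR 2.59-fold, PHLDA3 2.49-fold and TP53I3 2.13-fold, the last not with TMM factors. CDKN1A, the cell-cycle inhibitor, had 91.8 CPM at day 0 and 98.3 CPM at day 6, against 64.04 and 444 CPM in wild type.

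**Figure D3:**
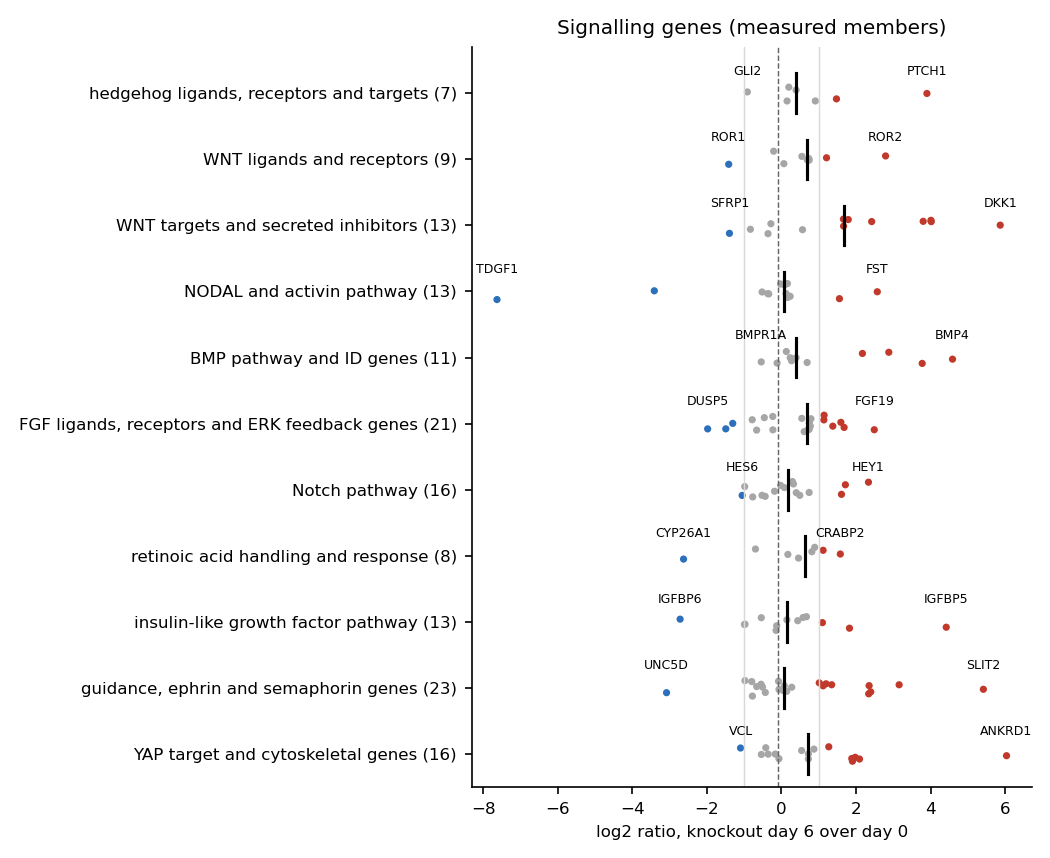
Log2 change from day 0 to day 6 in the knockout for each measured member of the signalling lists, 1 point a gene, with the median of each list as a bar, grey lines at 2-fold and a dashed line at the median of all genes (-0.09). WNT targets have a median of 1.67, and TDGF1 and ANKRD1 mark the ends of the range.

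Genes that bring glucose into the cell and turn it to lactate included several that rose. Of 28 listed genes of glucose uptake and glycolysis 25 were measured, of which 8 rose (32.0%), 1 fell and 16 did neither, with a median log2 change of 0.55 and a summed level of 18149 and 32108 CPM. The glucose transporters SLC2A3 (705 and 2244 CPM; 3.18-fold) and SLC2A1 (436 and 951 CPM; 2.18-fold) rose. So did the regulators of phosphofructokinase PFKFB4 (2.87-fold) and PFKFB3 (2.46-fold), phosphoglycerate kinase PGK1 (782 and 1884 CPM; 2.41-fold) and pyruvate kinase PKM (545 and 1304 CPM; 2.39-fold). Lactate dehydrogenase A (LDHA) had 448 CPM at day 0 and 1423 CPM at day 6 (3.18-fold) and LDHB 2464 CPM at day 0 and 2099 CPM at day 6, so that LDHA held 15.4% of the UMIs of the pair at day 0 and 40.4% at day 6. Of the lactate transporters, SLC16A3 (MCT4), the export form, rose 3.43-fold from 92.5 CPM at day 0 to 317 CPM at day 6, and SLC16A1 (MCT1) fell 2.302-fold from 309 CPM at day 0 to 134 CPM at day 6. GAPDH and ENO1, which have many pseudogenes, had log2 changes of 0.98 and 1.000, just short of 2-fold, and pass it with TMM factors. Hexokinases HK2 and HK1 had 0.58 and -0.55.

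Of 24 listed hypoxia-response genes outside glycolysis 21 were measured, of which 12 rose (57.1%), 2 fell and 7 did neither, with a median log2 change of 1.22. P4HA1 (115 and 481 CPM; 4.16-fold) and P4HA2 (2.58-fold) hydroxylate collagen, NDRG1 (10.5 and 45.5 CPM; 4.33-fold) and MXI1 (3.78-fold) restrain growth, and ADM (3.43-fold), VEGFA (2.76-fold) and STC1 (2.66-fold) are secreted signals. HILPDA, a lipid droplet protein, rose 3.38-fold from 129 CPM at day 0 to 438 CPM at day 6. KDM3A, a histone demethylase, rose 2.33-fold. EGLN3, an oxygen sensor that marks HIF proteins for decay, rose 2.25-fold, and EGLN1 had a log2 change of 0.74, as the factor HIF1A had 0.16. APLN (apelin) fell 6.02-fold from 47.6 CPM at day 0 to 7.904 CPM at day 6 and STC2 2.16-fold, the STC2 call ending with TMM factors. The share of cells with a P4HA1 UMI went from 26.8% (25.8 to 27.9, unthinned 48.6%, free RNA 2.48%) to 70.7% (69.3 to 72.03, unthinned 94.999%, free RNA 9.26%).

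The rises among cholesterol genes took in synthesis enzymes and the feedback regulators. Of 28 listed genes 27 were measured, of which 8 rose (29.6%), 0 fell and 19 did neither, with a median log2 change of 0.47. HMGCS1, which makes the precursor of mevalonate, had 142 CPM at day 0 and 516 CPM at day 6 (3.63-fold (3.54 to 3.73) higher). The feedback regulators INSIG1 (2.95-fold) and INSIG2 (2.45-fold), the sterol carrier STARD4 (2.91-fold) and the enzymes MSMO1 (2.44-fold) and SQLE (2.34-fold) also rose. The sterol sensor SCAP had a log2 change of -0.84. A HMGCS1 UMI was found in 32.4% (31.3 to 33.5, unthinned 55.4%, free RNA 4.802%) and 68.1% (66.7 to 69.5, unthinned 92.4%, free RNA 13.9%) of cells.

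Of 19 listed genes of fatty acid synthesis and binding 16 were measured: SCD5, a desaturase of the brain (3.68 and 32.2 CPM; 8.73-fold), and FABP7, a lipid carrier typical of neural progenitors (23.2 and 173 CPM; 7.47-fold), rose, MLXIPL, which drives lipid synthesis from glucose, fell 3.297-fold, and the synthase FASN and the desaturase SCD had log2 changes of 0.54 and 0.67. FABP5 had 347 CPM at day 0 and 216 CPM at day 6, so that FABP7 gained on it: FABP5 held 93.7% of the UMIs of the pair at day 0 and 55.5% at day 6. FABP7 changed by 2.08 in the chromosome 20 class, against 2.90, and in wild type it had 46.2 and 31.1 CPM. Of 22 listed genes of fatty acid oxidation 15 were measured, of which ACADM fell 2.12-fold (neither with TMM factors nor in the chromosome 20 class) and 14 did neither.

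Few nuclear respiratory genes passed 2-fold, while several genes of the mitochondrial genome fell. Of 38 nuclear complex I genes, all measured, 0 rose and 2 fell (NDUFB1 and NDUFB10, at 2.06-fold and 2.07-fold), with a median log2 change of -0.28, and of 36 measured genes of complexes III to V 0 rose and CYCS (cytochrome c, 2.08-fold) fell, with a median of -0.33. None of these 3 calls remains with TMM factors. The NDUFB10 call also ends with equal weight per cell and without the 5% of cells with the most UMIs. Of the 13 MT- genes 0 rose, 6 fell and 7 did neither, with a median of -0.77 and a sum of 64675 and 27680.1 CPM. MT-ATP6 fell 3.36-fold from 9914 CPM at day 0 to 2953 CPM at day 6 and MT-CO2 3.298-fold, with MT-ND3, MT-CYB, MT-CO3 and MT-ATP8 (the last neither with TMM factors nor among cells of at least 8000 UMIs) the others that fell, whereas MT-CO1 and MT-ND4 had log2 changes of -0.58 and -0.59. The levels of these genes, too, are CPM with MT- and ribosomal protein genes left out of the total. Of 28 measured genes of pyruvate entry and the citric acid cycle 0 rose and 1 (IDH3A, at the 2-fold limit, not with TMM factors) fell, with a median of -0.11.

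Several genes of amino acid synthesis and uptake fell. Of 15 measured genes of serine, glycine and one-carbon metabolism 0 rose and 4 fell, with a median of -0.71: GLDC of the glycine cleavage system (48.2 and 11.7 CPM; 4.12-fold), PSAT1 (435 and 127 CPM; 3.44-fold) and PSPH (2.36-fold) of serine synthesis, and the transporter SLC1A5 (2.18-fold). PHGDH, which starts serine synthesis, had a log2 change of -0.39. Of 18 measured genes of glutamine, aspartate and proline metabolism 0 rose and 5 fell, with a median of -0.69. ASS1, which joins citrulline and aspartate, had 70.2 CPM at day 0 and 7.49 CPM at day 6 (9.38-fold (8.39 to 10.5) lower) and a UMI in 17.03% (16.2 to 17.9, unthinned 35.5%, free RNA 2.38%) and 2.01% (1.62 to 2.47, unthinned 6.97%, free RNA 0.401%) of cells. The glutaminase GLS2 (22.4 and 3.27 CPM; 6.83-fold) fell. The transporters SLC7A5 (4.22-fold) and SLC38A1 (299.7 and 82.4 CPM; 3.64-fold) fell, as did PYCR1 (2.12-fold; not with TMM factors).

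Of 17 measured targets of the integrated stress response 2 rose (DDIT4 at 2.55-fold and PPP1R15A at 2.798-fold) and 5 fell, led by TRIB3 (16.5 and 2.598 CPM; 6.34-fold) and CHAC1 (4.04-fold), while ATF4 itself had a log2 change of -0.19. TRIB3 and CEBPB lie on chromosome 20. Of 13 measured genes of methionine and polyamine metabolism, SAT1 rose and CBS (15.9 and 3.86 CPM; 4.11-fold), which starts transsulfuration, fell. SAT1, which acetylates polyamines for export, had 146 CPM at day 0 and 2532 CPM at day 6, was 17.3-fold (16.9 to 17.7) higher, and changed by 4.88 on the log2 scale in the chromosome 20 class against 4.11. A SAT1 UMI was in 32.7% (31.7 to 33.8, unthinned 57.6%, free RNA 6.04%) and 78.9% (77.7 to 80.1, unthinned 96.3%, free RNA 48.8%) of cells, so that free RNA alone would give much of the day 6 share. Its partners in the pathway ODC1, SRM and SMS had log2 changes of 0.77, -0.87 and -0.47.

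None of 13 measured genes of NAD synthesis and use or sirtuins rose or fell. NAMPT, the rate-limiting enzyme of NAD salvage, came closest with 127 CPM at day 0 and 227 CPM at day 6 (log2 change 0.85). SIRT2, SIRT3, SIRT5, SIRT6 and SIRT7 had changes of 0.18, -0.16, -0.56, -0.45 and -0.75, and PARP1, a large consumer of NAD, -0.44. In nucleotide synthesis 0 rose and PFAS fell, of 17 measured (5.88%). In the pentose phosphate pathway 0 rose and IDH1, at 2.46-fold, fell, of 12 (8.33%). Of all measured genes 9.22% fell. UGP2, which makes UDP-glucose for glycogen, fell 6.498-fold from 460.4 CPM at day 0 to 70.8 CPM at day 6, and the glycogen branching enzyme GBE1 rose 3.02-fold.

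Metallothioneins, small proteins that bind zinc and copper, rose in part. Of 20 measured genes of metal handling and redox, 4 rose, 1 fell and 15 did neither. MT2A had 164 CPM at day 0 and 1206 CPM at day 6 (7.35-fold), MT1X 239 CPM at day 0 and 1154 CPM at day 6 (4.83-fold) and MT1E 82.4 CPM at day 0 and 350.5 CPM at day 6 (4.25-fold), and the zinc exporter SLC30A1 rose 2.98-fold, while MT1G and MT1F had log2 changes of 0.13 and 0.08. These genes are near-identical copies, so the split of reads among them is uncertain. HMOX1, which breaks down heme, fell 6.56-fold from 26.4 CPM at day 0 to 4.02 CPM at day 6. A MT2A UMI was in 34.7% (33.3 to 36.1, unthinned 60.7%, free RNA 28.7%) of day 6 cells, close to the share from free RNA, so nothing is read from it.

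The promoters of P4HA1, MT2A and MT1X are shown because the hypoxia-response and metal-response lists each hold members that rose together. Capitals mark matches on either strand, in P4HA1 to ACGTG or GCGTG, the core letters read by HIF proteins, and in the metallothioneins to TGCNCNC, the core read by the zinc-sensing factor MTF1 (N is any base; the matches may overlap). The 250 bases before each start are given 5′ to 3′ on the strand of the gene (RefSeq, GRCh38.p14; P4HA1 at chr10:73096867-73097116, minus strand, MT2A at chr16:56608334-56608583 and MT1X at chr16:56682220-56682469, both plus strand).
P4HA1: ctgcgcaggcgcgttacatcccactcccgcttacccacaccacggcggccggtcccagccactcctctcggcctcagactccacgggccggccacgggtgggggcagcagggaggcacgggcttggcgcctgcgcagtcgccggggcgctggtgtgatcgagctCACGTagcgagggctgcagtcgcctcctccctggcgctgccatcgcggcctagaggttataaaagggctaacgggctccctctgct
MT2A: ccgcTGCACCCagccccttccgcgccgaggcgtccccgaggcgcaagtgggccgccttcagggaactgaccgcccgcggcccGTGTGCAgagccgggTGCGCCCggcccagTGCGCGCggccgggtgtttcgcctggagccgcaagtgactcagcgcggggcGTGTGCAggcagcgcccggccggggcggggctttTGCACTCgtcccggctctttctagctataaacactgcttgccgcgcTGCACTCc
MT1X: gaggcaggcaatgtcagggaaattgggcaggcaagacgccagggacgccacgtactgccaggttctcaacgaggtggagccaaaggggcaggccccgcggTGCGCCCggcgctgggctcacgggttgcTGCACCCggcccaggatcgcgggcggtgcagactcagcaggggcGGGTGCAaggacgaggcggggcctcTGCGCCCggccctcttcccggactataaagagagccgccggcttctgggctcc
There was 1 match before P4HA1, 7 before MT2A and 4 before MT1X. A hypoxia core was found in 5 of 8 risen members with a promoter in the table (62.5%), against 43.1% of all promoters. Members that did neither held it in 5 of 6 promoters (83.3%) and those that fell in 2 of 2. A metal core was in 3 of 3 risen members and in 8 of 10 that did neither (80%), against 48.4% of all promoters. Both cores are common letters by themselves.

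**Figure D4:**
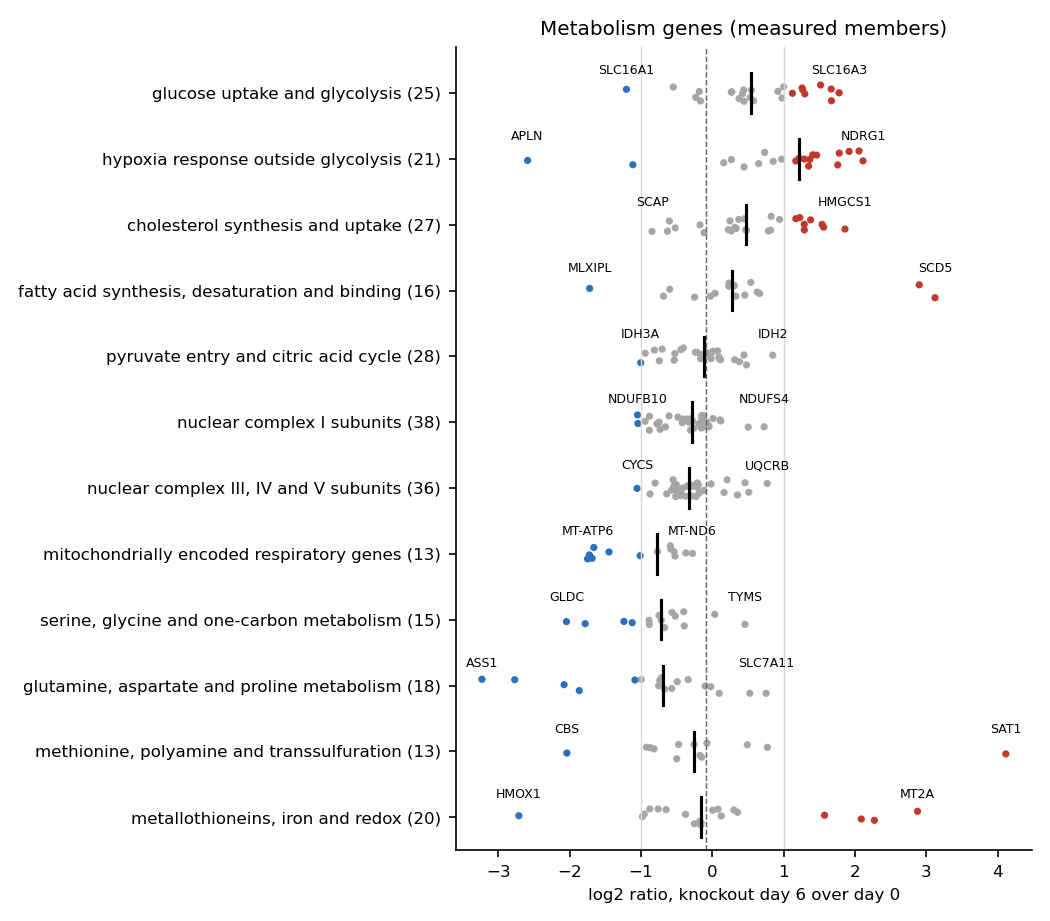
Log2 change from day 0 to day 6 in the knockout for each measured member of the metabolism lists, 1 point a gene, with the list median as a bar, grey lines at 2-fold and a dashed line at the median of all genes (-0.09). Of the lists drawn, hypoxia-response genes (median 1.22) have the highest median and the mitochondrially encoded genes (median -0.77) the lowest.

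Among transporters, the calls were mostly downward. Of 140 measured SLC genes 7 rose (5.00%) and 22 fell (15.7%), or 14 with TMM factors. Among those that fell were the amino acid transporters SLC43A1 (6.84-fold), SLC38A5 (4.42-fold) and SLC7A8 (2.63-fold), the glutamate transporter SLC1A3 (3.28-fold) and the mitochondrial carriers SLC25A10 and SLC25A4. Among cells of the chromosome 20 class the log2 change was -3.44 for SLC43A1 (-2.77 over all cells), -2.76 for SLC38A5 (-2.14) and -2.62 for SLC1A3 (-1.71). SLC5A3, a carrier of inositol, rose 2.702-fold from 70.8 CPM at day 0 to 191 CPM at day 6. Of 77 measured mitochondrial ribosomal protein genes 0 rose and 4 fell (0 with TMM factors), with a median of -0.38, and of 36 proteasome genes 0 rose and 2 fell, the immune-type subunits PSMB8 (20.3 and 2.904 CPM; 6.98-fold) and PSMB10 (2.703-fold).

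Imprinted genes, expressed from the copy of 1 parent, rose in several cases. Of 17 listed 13 were measured, of which 7 rose (53.8%), 0 fell and 6 did neither. PLAGL1 was joined by DLK1, a secreted and membrane-bound relative of Notch ligands (11.7 and 139 CPM; 11.9-fold), the cell-cycle inhibitor CDKN1C (25.2 and 105 CPM; 4.16-fold), ZDBF2 (2.796-fold), the antisense RNA KCNQ1OT1 (2.42-fold), SGCE (2.24-fold) and its neighbour PEG10 (2.07-fold, at the 2-fold limit among cells of at least 2000 UMIs). SNRPN had 1107 CPM at day 0 and 561 CPM at day 6 (log2 change -0.98) and MEST -0.02.

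E-cadherin and claudins fell, and N-cadherin rose. Of 18 measured junction genes 4 rose and 8 fell (44.4%). CDH1 had 89.8 and 2.36 CPM and N-cadherin (CDH2) 73.3 and 197 CPM (2.69-fold), so that CDH1 held 55.1% of the UMIs of the pair at day 0 and 1.18% at day 6. A CDH1 UMI was found in 20.4% (19.5 to 21.3, unthinned 40.7%, free RNA 2.24%) and 0.498% (0.312 to 0.753, unthinned 1.49%, free RNA 0.301%) of cells and a CDH2 UMI in 19.4% (18.5 to 20.3, unthinned 36.96%, free RNA 1.76%) and 41.5% (40 to 42.9, unthinned 78.8%, free RNA 3.81%). The protocadherins PCDH9 (10.6-fold) and PCDH18 (2.605-fold) and CDH6 (8.09-fold; log2 change 3.01, and 1.72 in the chromosome 20 class) rose. CLDN6 (3.25-fold), EPCAM (6.66-fold), CDH3 (4.63-fold), CLDN10 (2.496-fold) and CLDN3 (2.296-fold) were among those that fell, with CLDN7. Restricted to the chromosome 20 class, PCDH18 (0.95) and CLDN3 (-0.82) did not reach 2-fold. Of 24 measured matrix and integrin genes, COL2A1, NID1 (3.17-fold), LAMB1 (2.402-fold) and ITGA5 (2.36-fold; under 2-fold in the chromosome 20 class) rose, and SPP1 (osteopontin) and ITGA3 fell. A COL2A1 UMI was in 2.21% (1.89 to 2.58, unthinned 4.92%, free RNA 0.5598%) of day 0 and 46.9% (45.4 to 48.4, unthinned 75.6%, free RNA 8.45%) of day 6 cells. Of the glypicans, GPC3 rose from 81.99 CPM at day 0 to 323 CPM at day 6 (3.94-fold) and GPC4 fell from 167 CPM at day 0 to 55.3 CPM at day 6 (3.03-fold).

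Of the cell-cycle lists, S phase genes fell at about the background share, and G2 and M phase genes held no calls. Of 40 measured S phase genes 0 rose and 4 fell (10%, against 9.22% of all measured genes), with a median of -0.36. Those that fell were MCM5 (2.66-fold), PCNA (2.19-fold), UNG and CDC45, and 2 fell with TMM factors. PCNA also lost its call among cells of at least 8000 UMIs. Of 52 G2 and M phase genes 0 rose and 0 fell, with a median of 0.26. In wild type 22 of 40 S phase and 1 of 52 G2 and M phase genes fell, with medians of -1.13 and -0.12, and all measured wild-type genes had a median of -0.26.

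The labelled cell states were set beside marker genes. These lists were chosen with earlier results of these data known, so they cannot check the labels. Of 16 pluripotent markers, all measured, 0 rose and 14 fell (87.5%), and their summed level went from 7481 to 2350.5 CPM. ESRG, a non-coding RNA of undifferentiated cells, fell 23.1-fold, CD24 4.13-fold, THY1 3.71-fold and L1TD1, an RNA-binding protein, 2.78-fold, with a L1TD1 UMI still in 35.8% (34.4 to 37.2, unthinned 64.5%, free RNA 5.82%) of day 6 cells. Of 16 neural epithelial markers 12 were measured, of which 5 rose and 2 fell, and their sum went from 1348 to 5842 CPM; VIM (vimentin, 680.4 and 3979 CPM) and PTN (pleiotrophin, 168 and 1077 CPM) made up most of it. Neuronal members of the list did not rise: TUBB3 (2.86-fold) and STMN2 (7.195-fold) fell and DCX had 367 and 143 counts. In the chromosome 20 class the log2 change was 3.23 for VIM (2.55 over all cells), 1.68 for PTN (2.68), -1.61 for STMN2 (-2.84) and -2.41 for the pluripotent marker PODXL (-1.72).

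Markers of other cells were low or did not rise as a list. Of 14 mesenchymal markers 6 were measured, with a sum of 225 and 306 CPM at day 0 and day 6, of which PDGFRB (3.298-fold) and TAGLN rose and COL1A1 (111 and 135 CPM) did neither. The fibroblast genes LUM (159 and 32 counts), DCN (77 and 43) and COL3A1 (308 and 115) were below 10 CPM. The sum of 10 endoderm markers went from 267 to 65.3 CPM, most of it EPCAM, which pluripotent cells also express, with CXCR4 risen 20.3-fold and APOA1 fallen 6.72-fold. The APOA1 log2 change was -2.74, -1.29 without the 5% of cells with the most UMIs and -1.87 with equal weight per cell, where in both it stayed under 10 CPM and the call ends, and -4.15 in the chromosome 20 class. TTR had 3 and 0 counts and HNF4A 2 and 0. Of 11 surface ectoderm and keratin markers 6 were measured, 0 rose and 3 fell, and KRT5, KRT14 and TP63 had 0 counts at both days.

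Within the day 6 cells, genes were found together unevenly. The shares that follow are over cells thinned to 4000 UMIs and are descriptions of 1 library. A cell counted as without a gene may hold a UMI of it that thinning left out. Unthinned, 48.2% of day 6 cells held a FOXA2 UMI, 55.04% a POU5F1 UMI, 8.06% a SIX6 UMI and 32.5% a GBX2 UMI. Cells with a FOXA2 UMI (1183) and without (3236) were compared for other genes. LINC00261 was found in 29.6% (26.996 to 32.3) of the former and 7.76% (6.86 to 8.73) of the latter, BMP4 in 17.8% against 4.79%, COL2A1 in 61.2% against 41.7%, SLIT2 in 38.5% against 22.8% and EN1 in 5.66% against 2.69%. The order turned for POU5F1 (24.1% against 35.7%), FABP7 (19.7% against 35.4%), PTN (52.7% against 71.4%) and FST (21.5% against 34.95%). PTCH1, whose RNA rose in the sum, was found in 43.4% against 38.8%.

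Cells with a POU5F1 UMI (1440) and without (2979) were compared in the same way. L1TD1 was found in 53.8% (51.1 to 56.4) of the former and 27.1% (25.5 to 28.8) of the latter, and NANOG in 7.99% against 1.64%. SOX2 was found in 82.3% against 79.6% and SP5 in 24.9% against 15.2%. COL2A1 (27.99% against 56.03%), IGFBP5 (36.5% against 59.8%), DLK1 (11.1% against 26.9%) and SIX6 (0.833% against 6.08%) were less frequent in them. Of cells with a SIX6 UMI (193) and without (4226), DLK1 was found in 59.1% (51.8 to 66.1) of the former and 20.04% (18.8 to 21.3) of the latter, SIX3 in 17.1% against 2.22%, FOXA2 in 39.9% against 26.2% and POU5F1 in 6.22% against 33.8%. The 536 cells with a GBX2 UMI and those without held PAX8 in 7.65% against 3.81%, PTCH1 in 50.2% against 38.7% and EN1 in 1.49% against 3.76%.

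Beside the knockout change, that of wild type over the same days gave the following counts: 747 (7.09%) of 10529 measured genes rose and 1859 (17.7%) fell. With TMM factors 1115 and 816 of 9207 measured genes did. Higher genes made up 28.7% of the wild-type calls, or 57.7% with TMM factors, so the split depends on the scaling. The 2 changes share no library. Across 10065 genes measured in both genotypes, without MT- and ribosomal protein genes, the correlation of their log2 values was 0.852 (Pearson's r) and 0.821 (Spearman's rho). It is a description across genes, which are not independent replicates. Of the 645 genes that rose in the knockout 402 (62.3%) also rose in wild type, 53.8% of those that rose there, and of the 967 that fell 757 (78.3%) also fell, 40.7% of those that fell there. No gene rose in the knockout and fell in wild type, and 5 did the reverse.

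**Figure D5:**
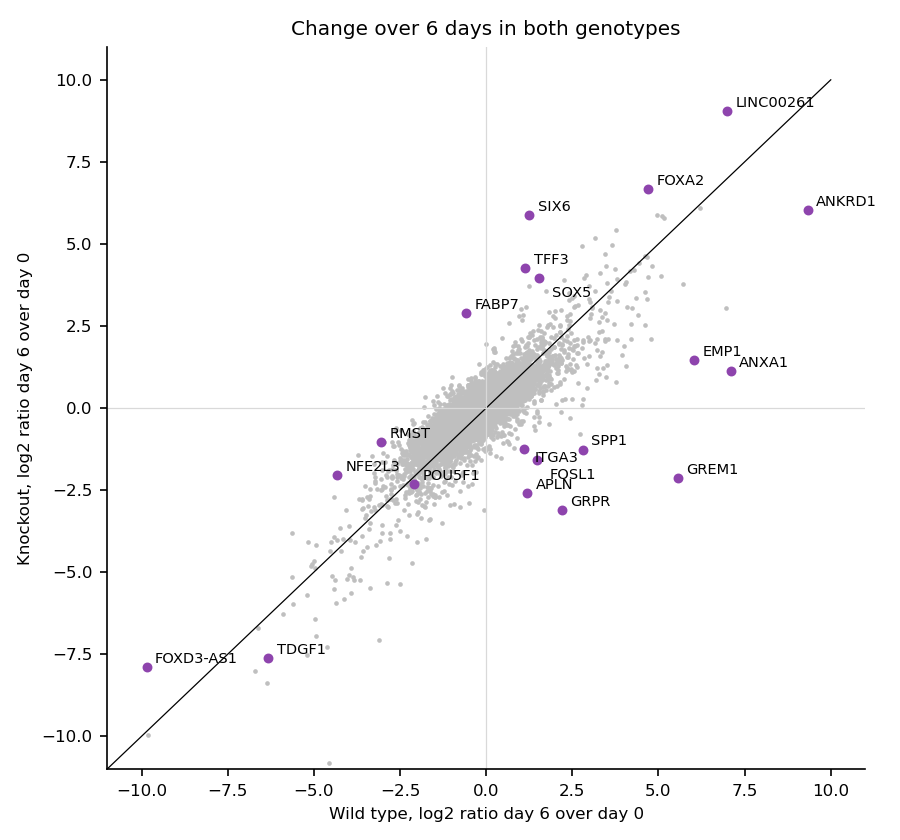
Log2 change from day 0 to day 6 in wild type (horizontal) against the knockout (vertical), 1 point a gene measured in both genotypes, with named genes added that were measured in only 1 of them (SIX6, SOX5, GREM1, ANXA1, EMP1). Most points follow the diagonal (r = 0.852 without the MT- and ribosomal protein genes, which are drawn), SIX6 and FABP7 lie above it and GREM1, ANXA1 and SPP1 below.

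The 10 highest differences, knockout minus wild type on the log2 scale, for genes that reached 20 CPM in any library, were led by SIX6 at 4.63 (3.81 to 5.45), with a counting interval from a normal approximation. FABP7 followed at 3.47 (3.34 to 3.61), with 23.2 and 173 CPM in the knockout and 46.2 and 31.1 CPM in wild type. TFF3, a trefoil peptide of mucosal cells, differed by 3.13 (2.87 to 3.40), from 3.299 and 63.7 CPM in the knockout and 12.1 and 26.6 CPM in wild type. SMOC1, a secreted modulator of BMP signals, had 4.34 and 21.003 CPM and 5.19 and 2.898 CPM (difference 3.11 (2.71 to 3.50)). AP000459.2 (2.49 (2.31 to 2.68)), SOX5 (2.41 (1.999 to 2.82)), LINC00261 (2.07 (0.84 to 3.29)) and LIX1 (2.01 (1.49 to 2.53)) rose in the knockout too, whereas NFE2L3, a stress-linked factor (2.28 (2.08 to 2.48)), and the non-coding RNA RMST (2.02 (1.79 to 2.24)) fell in both genotypes and less in the knockout. For LINC00261 and LIX1 the difference came mainly from day 0, with 6 and 39 counts in the knockout and 30 and 148 in wild type. At day 6 LINC00261 stood at 66.5 CPM in the knockout and 74.8 CPM in wild type, and LIX1 at 27.7 and 25.9 CPM. Among cells of the chromosome 20 class the knockout log2 change was 5.55 for TFF3 (4.27 over all cells), 1.67 for SMOC1 (2.27), 2.99 for AP000459.2 (3.72), 2.08 for FABP7, 2.80 for SOX5, 3.97 for LIX1, 5.17 for SIX6 and -1.86 for RMST (-1.03, a call that ends with TMM factors and among cells of at least 8000 UMIs). The TFF3 change was 12.38 after subtraction of free RNA, which left few or no counts at day 0, so this value depends on the prior count.

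The 10 lowest differences were led by GREM1, a secreted BMP antagonist, which had 2.51 and 0.568 CPM in the knockout and 0.561 and 26.8 CPM in wild type, a difference of -7.67 (-8.48 to -6.87). ANXA1, an annexin of inflammation (1.37 and 3.01 CPM against 0.407 and 56.7 CPM; -5.96 (-6.70 to -5.22)), EMP1 (-4.58 (-5.14 to -4.02)) and the potassium channel KCNJ2 (-3.83 (-4.37 to -3.29)) stayed below 10 CPM in the knockout and reached 56.7, 46.6 and 38.6 CPM in wild type at day 6. ANKRD1 rose in both genotypes, to 59.0 CPM in the knockout and to 491 CPM in wild type (-3.29 (-3.90 to -2.67)). AL591030.1, a non-coding transcript, had 1021 counts at day 0 and 0 at day 6 in the knockout, at least 301-fold lower with a floor of 3 counts in the library, against 1945 and 53 counts in wild type. Restricted to the chromosome 20 class, its fitted log2 change was -9.36 against -10.82, values that depend on the prior count. SPP1, APLN and FOSL1 were also among them and moved in opposite directions in the genotypes. In the chromosome 20 class ANKRD1 changed by 5.27 (6.04 over all cells). The difference between the genotypes was not tested, since each has 1 library a day.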

How the data were processed

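Single-cell RNA was captured in droplets and read at the 3′ end in 4 libraries, 1 each for knockout and wild type at day 0 and day 6. The authors deposited raw UMI counts per gene and barcode for each library. Reads were processed with Cell Ranger 6.1.2 on GRCh38, per the submitters' processing notes, while the matrix headers name Cell Ranger 4; the annotation version and strand setting are not given in the sources used here. Those deposited count matrices include barcodes that are not cells.

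Cells were barcodes with at least 4000 UMIs, at least 1000 genes and at most 20% MT- UMIs. No doublets were removed. Counts were summed per library and scaled to 1000000 UMIs outside 13 MT- and 87 ribosomal protein genes. The day 6 to day 0 ratio has an exact conditional binomial 95% interval, and a gene with 0 counts was set at a floor of 3 counts for its bound. Log2 values carry a prior count of 0.5. Cells were thinned to 4000 UMIs for shares, and free RNA was taken from barcodes with 1 to 50 UMIs. Knockout libraries held 78917192 and 68523677 UMIs in all barcodes.

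Genes were named by rule: the 15 highest and 15 lowest changes, the 10 highest and 10 lowest differences from wild type, measured members of 52 lists and 22 families, and both genes of 32 paralogue pairs; some of these genes are not reported here. These members and lists were chosen with earlier results of these data known. Positions are from GENCODE 29 and promoters from RefSeq. Python 3.11.15 with numpy 2.4.6, scipy 1.17.1, pandas 2.3.3 and matplotlib 3.10.9 and, for TMM factors, R 4.3.3 with edgeR 4.0.16 were used. Tested on simulated data for knockout day 6 against day 0 (9998 genes), the call found 100% of 200 genes changed 3- or 4-fold and called 0% of 9702 unchanged genes. The simulated counts varied by counting error only, so the 0% says nothing about variation between cultures. Changed genes were drawn from those at 10 CPM or more at day 0, so genes low at that day were not covered. Alternatives covered the scaling, the limit on low values, the cell limits, equal weight per cell, free RNA, the cells with the most UMIs, the chromosome 20 class and the day 0 cells with a POU5F1 UMI.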

Additional observations from a re-analysis of the deposited data

Results flagged for a closer look

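In 5 genes the change from day 0 to day 6 went in opposite directions in the genotypes, down in the knockout and up in wild type. Each genotype has 1 library a day, and the difference was not tested. GRPR, the receptor of gastrin-releasing peptide, named only for this reversal, had 11.5 and 1.33 CPM in the knockout and 2.83 and 13.04 CPM in wild type, a log2 difference (knockout minus wild type) of -5.31 (-5.77 to -4.84). Its levels lie close to the 10 CPM limit: scaled to all UMIs or with TMM factors GRPR falls under it in both genotypes and both calls end, as does the knockout call in the chromosome 20 class, where its log2 change was -2.14 against -3.10. APLN, the peptide apelin, had 47.6 and 7.904 CPM and 9.31 and 21.3 CPM, a difference of -3.78 (-4.01 to -3.55). Osteopontin, encoded by SPP1 and secreted into matrix, had 38.1 and 15.9 CPM and 42.3 and 295 CPM (difference -4.06 (-4.20 to -3.92)). For FOSL1, an AP-1 subunit, the levels were 23.5 and 7.79 CPM and 17.02 and 47.2 CPM (-3.06 (-3.27 to -2.85)), and for the integrin subunit ITGA3 18.2 and 7.66 CPM and 16.6 and 35.8 CPM (-2.36 (-2.58 to -2.14)). With equal weight per cell the wild-type log2 change of ITGA3 was 0.98, under 2-fold. A limit of 50 CPM ended the knockout call of all 5 genes, and the wild-type call of GRPR, APLN, FOSL1 and ITGA3. That limit leaves the ratios as they are. All 5 ended at a higher level in wild type at day 6, and all but SPP1 began at a higher level in the knockout at day 0.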

How the results depend on the processing

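No alternative turned a knockout call into a call in the other direction, and 0 called genes changed sign. Of the 1612 knockout calls 1183 (73.4%) remained with TMM factors, 1328 (82.4%) with CPM of all UMIs and 1415 (87.8%) in the chromosome 20 class. The share kept was 36.0% with a limit of 50 CPM, 100% with no limit on low values, and 96.0% to 99.8% under the other alternatives. A change of the limit alters no ratio, so the 100% was fixed in advance and the 36.0% counts the called genes that reach 50 CPM. Named genes whose call ended with CPM of all UMIs all fell under the 10 CPM limit. With no limit on low values 2024 genes rose and 3408 fell in the knockout, and 2047 and 5190 in wild type. A limit of 50 CPM left 277 higher and 304 lower genes in the knockout and 374 and 617 in wild type. TMM factors lowered the falls to 621 in the knockout and 816 in wild type, and moved the median log2 change of all genes from -0.09 to 0.05 and from -0.26 to 0.08. They also lowered the measured genes from 10485 to 9355 in the knockout and from 10529 to 9207 in wild type. Some of the knockout calls thus ended under the 10 CPM limit and not under 2-fold. Among 303 named genes with a call, 45 moved by over 1.5-fold in the chromosome 20 class, 14 after subtraction of free RNA, 5 without the 5% of cells with the most UMIs, 4 among cells of at least 8000 UMIs, 4 with equal weight per cell, 2 with cells of at least 2000 UMIs and 1 among day 0 cells with a POU5F1 UMI; the cause was not tested. No paired analysis was possible because each group held 1 library. For the same reason no replicate could be left out, and the spread between cultures is unknown. Genes under 10 CPM, which include most floor plate and neuronal factors, rest on few counts. In the main setting no fold between the days is given for them. The log2 differences between the genotypes do use such levels. These are levels of GREM1, ANXA1, EMP1 and KCNJ2 in the knockout and of SIX6, SMOC1 and SOX5 in wild type.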
